A study of Mus musculus with 4 samples.

Results

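Integrins and laminins were examined in chondrocytes cut by laser microdissection from cryosections of mouse forelimb cartilage of the C57BL/6 strain. Hypertrophic chondrocytes (HC, E15.5, replicates 3 and 4) were set against proliferating chondrocytes (PC, E14.5, replicates 1 and 2), with 2 RNA sequencing libraries each. Zone and day change together, so the step to hypertrophy and 1 day of development cannot be told apart, and the sources used here give neither the number of embryos in a library nor how a zone was recognised. Little RNA was put into each library, through a kit made for degraded RNA (NuGen Ovation FFPE). The members are 31 of the 34547 genes in the tables, taken by symbol: 13 integrin alpha chains, 7 integrin beta chains and 11 laminin chains. All 31 passed the filter on low counts.

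Integrins are receptors made of an alpha and a beta chain that span the cell membrane and tie the matrix outside the cell to the actin skeleton inside. The alpha chain largely sets the ligand: some alpha chains bind collagens, some bind the RGD peptide motif of fibronectin and its relatives, and some bind laminins. Laminins are cross-shaped proteins built from 1 alpha, 1 beta and 1 gamma chain, best known from basement membranes and, in cartilage, from the thin matrix around each chondrocyte. Mice whose chondrocytes lack beta 1 integrins have disturbed growth plate columns and misshapen chondrocytes.

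The members higher in HC past the edgeR threshold given below were the collagen-receptor chain Itga2, which rose 32.75-fold, and the laminin chains Lamb1 and Lama4. They were not the largest by size alone. Itga7, at 8.30-fold, differed by more than Lamb1 (5.85-fold) and Lama4 (3.52-fold) and did not pass. The tenascin and osteopontin receptor chain Itga9 fell. With edgeR's quasi-likelihood test at an adjusted p of 0.05, 3 of 31 members were higher in HC, against 2.75% of all 16607 genes tested, and 1 of 31 was lower, against 1.96% (4.71% in either direction). An unadjusted p under 0.05 was reached by 15 of 31 members and 27% of all genes tested. With DESeq2's Wald test 11 of 31 members were higher and 3 lower, against 9.81% and 8.7% of all genes (18.5% in either direction). Many more genes passed when 1 HC library was left out, namely 28.3% of all genes tested without HC replicate 3 and 39% without HC replicate 4, against 3.49% without PC replicate 1 and 6.26% without PC replicate 2. A member that passed without an HC library is to be read against those shares. The median log2 fold change (HC over PC) was 0.84 over the members and -0.04 over all genes tested. Both HC libraries lay above both PC libraries for 14 members and below them for 7, where 27.7% and 33.3% of all genes tested did so. The groups overlapped for the other 10 members, and 61% of all genes tested did not overlap in either direction. Adjusted p-values were bunched near the threshold across the whole table, the lowest being 0.0359, and several members lay just outside it. Whether the replicates were separate animals is not stated, so p-values measure the spread between these libraries, which may be technical.

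Library depth was 15246529 and 21866266 estimated counts in HC and 30373440 and 36644496 in PC. A count was found for 17012 and 17945 genes in HC and for 21352 and 21154 in PC. Mitochondrial genes took 20.2% and 14.1% of counts in HC and 8.81% and 13.2% in PC, and the predicted gene Gm10800 took 8.75% and 2.67% in HC and 1.75% and 2.39% in PC. The part of these differences in the results was not tested. Levels below are in CPM, counts scaled to library size. The marker genes went with the labels, as the 6 hypertrophic markers summed to 32653 and 39429 CPM in HC replicates 3 and 4, against 191.8 and 1554 CPM in PC replicates 1 and 2. Summed over 8 chondrocyte markers they were 33372 and 39355 in HC and 49458 and 40046 in PC. Markers of other tissues also stood higher in HC. The 10 muscle markers summed to 508 and 119.9 CPM in HC and 26.3 and 34.7 in PC, the 10 endothelial markers to 283 and 136 in HC and 29.1 and 25.5 in PC, and the 10 macrophage markers to 163 and 60.6 in HC and 13.2 and 20.8 in PC. The 10 epidermal markers summed to 115 and 204 CPM in HC and 10.2 and 12.6 in PC. Some defining markers were at 0 in both HC libraries and at or near 0 in PC, namely the keratin Krt5 (0 and 0.26 CPM in PC), the myogenic factor Myod1 (0.0291 and 0.13) and the complement gene C1qa (0.0581 and 0.286). Others of the same lists were far higher in HC, such as the embryonic myosin Myh3 (113 and 27.6 CPM in HC, 0.843 and 2.13 in PC) and the macrophage gene Cd68 (87.9 and 34.7 CPM in HC, 3.69 and 8.33 in PC). In bulk libraries fewer cells of a type and less RNA per cell cannot be told apart. The 10 perichondrial markers summed to 10288 and 3710 CPM in HC and 1045 and 1488 in PC, the 6 osteoblast markers to 13239 and 4520 in HC and 696 and 1182 in PC, the 6 osteoclast markers to 143 and 64.8 in HC and 8.34 and 9.84 in PC, and the 6 red cell markers to 305 and 283 in HC and 20.7 and 39.4 in PC. The collagen gene Col1a1, in both the perichondrial and the osteoblast list, had 9312 and 3170 CPM in HC and 374 and 741 in PC. Without it the perichondrial sums were 976 and 541 in HC and 671 and 747 in PC, which overlapped, and the osteoblast sums 3927 and 1350 in HC and 321.5 and 441 in PC. The perichondrial genes Twist2 and Fgf18 were at 0 in both HC libraries and between 0.901 and 3.23 CPM in PC. Col12a1 was also lower, with 377 and 163 CPM in HC and 381 and 439 in PC. Others were higher in both HC libraries, namely Thbs2 (35.8 and 73.2 CPM in HC, 12.2 and 16.9 in PC), Dcn (125 and 59.2, 34.8 and 40.5) and Postn (76.6 and 44.1, 9.36 and 14.3). Col3a1, Prrx1 and Crabp1 overlapped between groups. The 10 nerve markers summed to 37.2 and 45.5 CPM in HC and 27.2 and 26.8 in PC. Of these lists of other tissues, the epidermal and nerve sums were higher in HC replicate 4 and the rest in HC replicate 3. What such cells contributed to the values below was not tested.

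**Figure D1:**
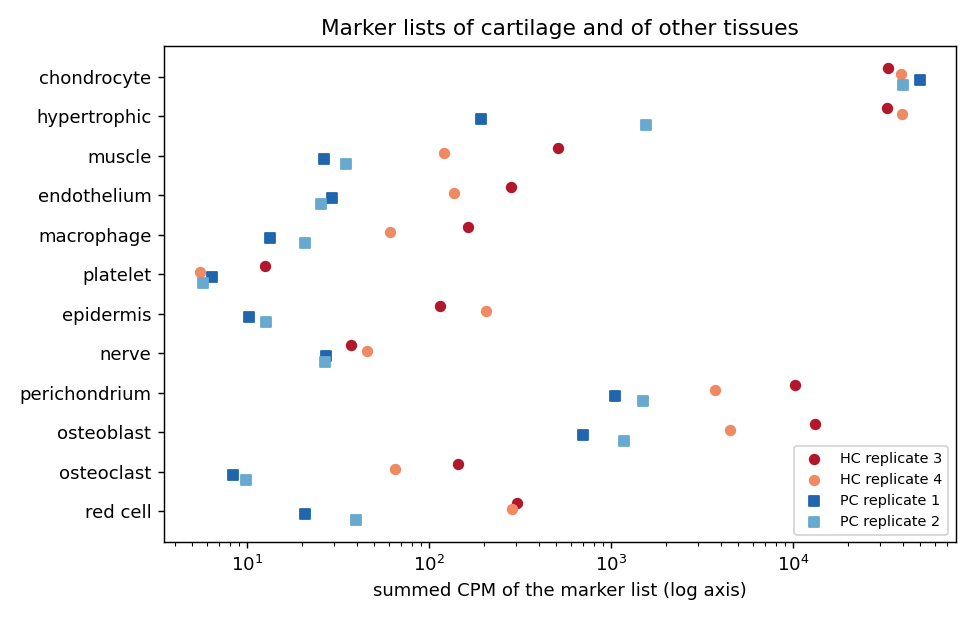
Summed CPM (log axis) of each marker list in HC replicates 3 and 4 (circles) and PC replicates 1 and 2 (squares), 1 point a library. The chondrocyte sums lie close together (33372 to 49458 CPM), while the muscle, endothelial, macrophage and epidermal sums of both HC libraries lie above those of both PC libraries.

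The integrin chains that bind collagens came apart in HC. Itga2, whose heterodimer with beta 1 binds fibrillar collagens and, in other tissues, is the collagen receptor of platelets and epithelia, was at 208 and 259.9 CPM in HC and at 4.04 and 10.2 CPM in PC. Both HC libraries lay far above both PC libraries, by much more than either pair differed. The log2 fold change was 5.03 with an SE of 0.56 (n = 2 libraries each, edgeR adjusted p = 0.0359). It passed the threshold whichever library was left out, at 5.15 and 4.82 with HC replicate 3 or 4 dropped and at 4.48 and 5.82 with PC replicate 1 or 2 dropped. On the deposited TPM scale, which accounts for transcript length, Itga2 had 23.7 and 46.1 TPM in HC and 0.873 and 1.93 in PC, all of it on 1 coding transcript of 7108 bases. Of the platelet markers Gp5 and Ppbp were at 0 in both HC libraries, and Pf4 was at 1.95 and 0 CPM in HC and at 0.0581 and 0 in PC. 4 of the 8 platelet markers were at 0 in each HC library, and all 8 together summed to 12.5 and 5.49 CPM in HC and to 6.36 and 5.71 in PC. The epidermal markers summed to 115 and 204 CPM in HC and to 10.2 and 12.6 in PC, and Dsp, a desmosome gene of epithelia, had 85.2 and 149 CPM in HC and 1.51 and 5.58 in PC. Like Itga2, this sum and Dsp, which made up most of it, were higher in HC, and in HC replicate 4 above HC replicate 3. Epcam, Perp, Krt1, Krt10, Trp63 and Dsg3 were also higher in HC replicate 4 than in HC replicate 3. The keratins Krt14 and Krt15 went the other way, and Krt5 was at 0 in both HC libraries. The part of epidermal RNA in the Itga2 values was not tested.

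Itga1, the closely related chain that binds collagen IV and other collagens, is the neighbour of Itga2 in the genome. Itga2 lies at chr13:114833081-114932100 and Itga1 at chr13:114953096-115101964 (GRCm38, both on the minus strand), 20995 bases apart with no protein-coding gene between. Itga1 had 233.5 and 426 CPM in HC and 79.5 and 104 CPM in PC. Both HC libraries were higher, yet with a log2 fold change of 1.84 ± 0.40 Itga1 stayed outside the threshold (edgeR adjusted p = 0.0603). It passed without HC replicate 3 (2.18, adjusted p = 0.00178), HC replicate 4 (1.30, 0.0169) or PC replicate 2 (2.02, 0.0347). The pair shared a direction, with the larger difference at Itga2. The promoter windows of both (RefSeq, GRCm38.p6, 250 bases before to 50 bases after the start site, minus strand, written 5′ to 3′) are shown because these neighbours stood higher in HC together. Capitals mark matches to the GC box, GGGCGG on either strand.
Itga2 promoter, chr13:114932051-114932350: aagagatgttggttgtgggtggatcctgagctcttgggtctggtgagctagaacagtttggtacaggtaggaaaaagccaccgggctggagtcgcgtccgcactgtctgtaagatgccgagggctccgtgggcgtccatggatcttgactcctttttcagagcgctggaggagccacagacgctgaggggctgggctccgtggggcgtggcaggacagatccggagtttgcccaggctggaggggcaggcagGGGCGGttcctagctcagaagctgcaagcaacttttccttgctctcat
Itga1 promoter, chr13:115101915-115102214: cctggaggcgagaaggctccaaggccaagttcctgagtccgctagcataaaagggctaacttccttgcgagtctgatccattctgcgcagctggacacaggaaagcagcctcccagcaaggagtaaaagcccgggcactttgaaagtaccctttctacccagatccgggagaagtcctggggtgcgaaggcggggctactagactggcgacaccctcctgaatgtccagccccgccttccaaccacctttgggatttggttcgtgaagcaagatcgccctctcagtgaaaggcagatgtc
The windows held 59.3% and 56.7% G and C, against a median of 52.7% over the 32851 promoter windows of the table. The Itga2 window had 1 GC box, starting at base 3 after the start site, and the Itga1 window had none. A GC box was found in 35.7% of all windows. Neither window held the RUNX letters TGTGGT, the AP-1 letters TGANTCA, the SOX letters ACAATG or the TATA box TATAAA on either strand, which 16.8%, 7.81%, 12.6% and 13.6% of all windows did. The GC box and TATA box letters were chosen after these sequences had been seen, and a match is a description of the letters only.

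The remaining collagen receptor chains did not share this direction. Itga10, the chain of the main collagen II receptor of chondrocytes, had 43.9 and 94.8 CPM in HC and 71.8 and 63.8 in PC. One HC library lay below and 1 above both PC libraries, and the log2 fold change was 0.03 ± 0.42 (edgeR adjusted p = 0.969). Gm42957, on the same strand, overlaps an exon of Itga10 and had 6.09 and 3.15 CPM in HC and 12.6 and 5.74 in PC. The part of shared reads in the Itga10 values was not tested. Itga11, a receptor for fibrillar collagens known from fibroblasts and the periodontal ligament, had 20.6 and 5.18 CPM in HC and 32.2 and 28.01 in PC. It was lower in both HC libraries and did not pass (-1.23 ± 0.65, edgeR adjusted p = 0.289), although it did without HC replicate 3 (-2.57, adjusted p = 0.0013). In this class 1 of 4 members rose with edgeR, none fell and 3 did not pass, against 2.75% higher and 1.96% lower over all genes. DESeq2's Wald test also called Itga1 (1.86, adjusted p = 9.29e-05), as did edgeR without the filter on low counts (1.81, adjusted p = 0.0104), where 7.98% of all genes passed.

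**Figure D2:**
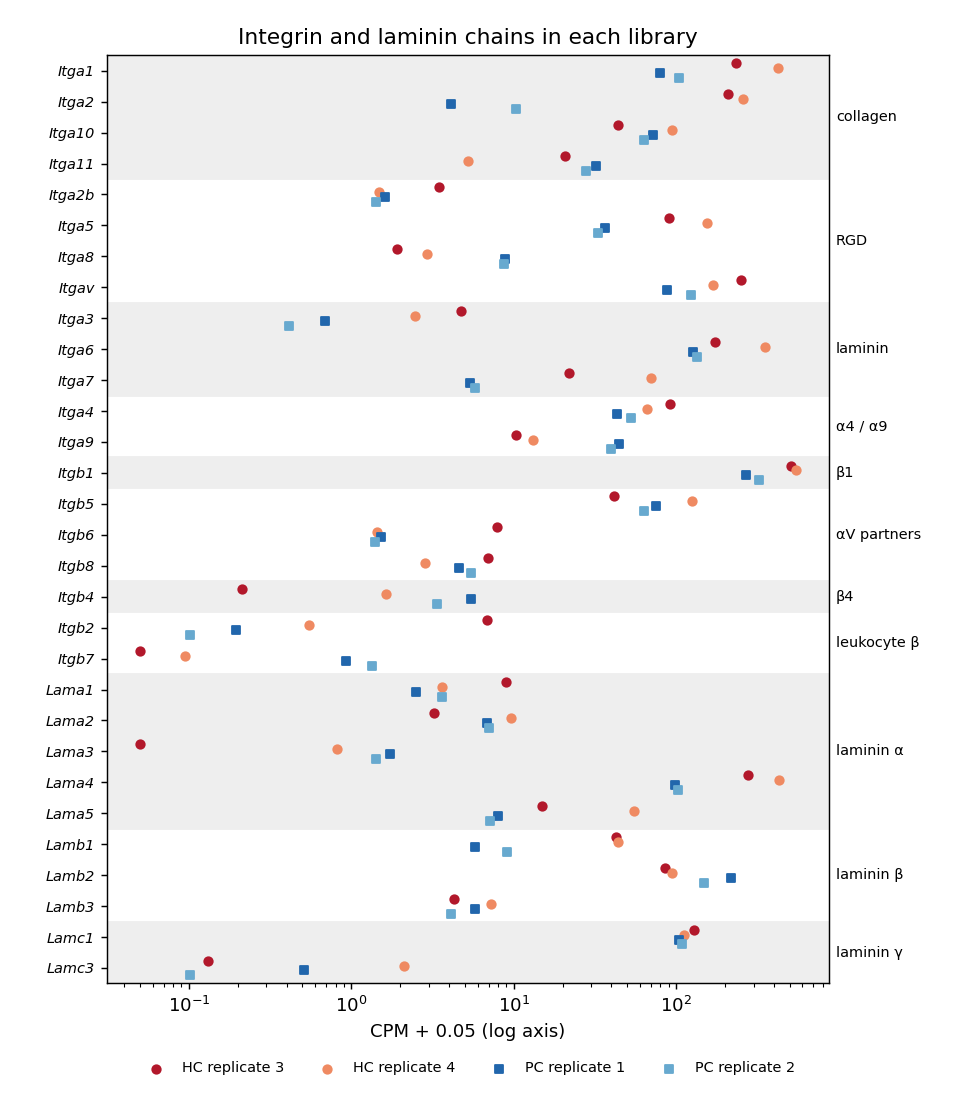
CPM plus 0.05 (log axis) of the members, grouped by ligand class, in HC replicates 3 and 4 (circles) and PC replicates 1 and 2 (squares), 1 point a library. Itga2 shows the widest gap between groups among well-counted members, with 208 and 259.9 CPM in HC and 4.04 and 10.2 in PC.

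Among the chains that bind the RGD motif, none of 4 passed with edgeR, and 3 had an unadjusted p under 0.05, where 27% of all genes did. With DESeq2's Wald test 3 of 4 passed, where 18.5% of all genes did. These were Itga5 (adjusted p = 8.19e-05), Itga8 (0.0401) and Itgav (0.0424), and Itga5 also passed with edgeR without the filter (0.00822). Itga5, which forms the main fibronectin receptor with beta 1, had 90.8 and 156 CPM in HC and 36.3 and 33.3 CPM in PC. Both HC libraries lay above both PC libraries by more than the gap between the PC libraries, and the log2 fold change of 1.83 ± 0.37 just missed the threshold (edgeR adjusted p = 0.0523). It passed without HC replicate 3 (2.13, adjusted p = 0.00114) or HC replicate 4 (1.34, 0.0089). Itgav, which takes several beta chains and binds vitronectin, osteopontin and latent TGF-beta, had 250.2 and 169 CPM in HC and 87.8 and 123 CPM in PC. It was higher in both HC libraries without passing (0.99 ± 0.35, edgeR adjusted p = 0.144), and passed without HC replicate 4 (1.20, adjusted p = 0.027). Itga8, the receptor chain for nephronectin, went the other way, with 1.87 and 2.88 CPM in HC and 8.83 and 8.62 CPM in PC (-1.87 ± 0.57, edgeR adjusted p = 0.107), and it passed without HC replicate 3 (-1.63, adjusted p = 0.0209) or HC replicate 4 (-2.27, 0.00609). Itga2b, the platelet chain, stayed between 1.38 and 3.41 CPM in all 4 libraries, with the groups overlapping.

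All 3 laminin-binding alpha chains were higher in both HC libraries than in both PC libraries, as were 27.7% of all genes tested. None passed with edgeR, and 2 had an unadjusted p under 0.05, where 27% of all genes did. Itga7 and Itga3 passed with DESeq2's Wald test (adjusted p = 1.18e-05 and 0.0438), where 18.5% of all genes did. Itga7 also passed with edgeR without the filter (0.00194), where 7.98% of all genes did. Itga7, a laminin receptor best known from skeletal muscle, had 21.8 and 70.1 CPM in HC and 5.35 and 5.74 CPM in PC. The log2 fold change was 3.05 ± 0.61 (edgeR adjusted p = 0.0523), at 3.63 without HC replicate 3, 1.93 without HC replicate 4, 2.97 without PC replicate 1 and 3.07 without PC replicate 2, each of which passed (adjusted p between 0.000237 and 0.00625). The muscle markers were lower in HC replicate 4 (119.9 CPM summed) than in HC replicate 3 (508), while Itga7 was higher there. In that list Ttn had 262 and 52.1 CPM in HC and 6.25 and 10.4 in PC, whereas Des, higher in HC replicate 4 like Itga7, had 2.11 and 10.5 CPM in HC and 0.901 and 0.26 in PC. The part of muscle RNA in the Itga7 values was not tested. Itga6, a broad laminin receptor chain, had 173 and 354 CPM in HC and 128 and 135 in PC, with HC replicate 4 standing out (1.005 ± 0.41, edgeR adjusted p = 0.186), and it passed without HC replicate 3 (1.40, adjusted p = 0.014). Itga3, the chain of epithelial and kidney laminin receptors, was low at 4.71 and 2.43 CPM in HC and 0.639 and 0.363 in PC (2.82 ± 0.95, edgeR adjusted p = 0.13). It passed without HC replicate 3 (2.24, adjusted p = 0.0367) or HC replicate 4 (3.18, 0.00452).

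Itga9 fell in HC. This chain pairs with beta 1 and binds tenascin-C, osteopontin and VEGF family members. It was at 10.3 and 13.2 CPM in HC and at 44.3 and 39.5 CPM in PC, so that each group was tight and the gap between them wide. The log2 fold change was -1.83 ± 0.33 (edgeR adjusted p = 0.0441), and the call was lost without PC replicate 1 (-1.78, adjusted p = 0.16) or PC replicate 2 (-1.94, 0.063) with the direction kept. Itga9 lies at chr9:118606690-118901003 (GRCm38, plus strand). Its relative Itga4, which binds VCAM1 and a splice segment of fibronectin, had 92.1 and 66.0 CPM in HC and 43.4 and 53.1 CPM in PC and did not pass (0.71 ± 0.32, edgeR adjusted p = 0.219). Cerkl, on the other strand, overlaps an exon of Itga4 and had 0.406 and 8.55 CPM in HC and 0.436 and 0.26 in PC, and reads there cannot be told apart without strand.

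None of the 7 beta chains passed with edgeR, and 3 had an unadjusted p under 0.05, where 27% of all genes did. With DESeq2's Wald test 2 of 7, Itgb1 and Itgb2, passed (adjusted p = 0.0254 and 0.00663), where 18.5% of all genes did. Itgb1, the partner of most alpha chains described here, had 513 and 548 CPM in HC and 269 and 322 in PC. Both HC libraries were higher without passing (0.84 ± 0.30, edgeR adjusted p = 0.148). Itgb5, a partner of alpha V for vitronectin, had 41.4 and 126 CPM in HC and 75.1 and 63.5 in PC, overlapping. Itgb8 and Itgb6, which with alpha V release active TGF-beta from its latent complex, were low. Itgb8 had 6.90 and 2.79 CPM in HC and 4.53 and 5.42 in PC, and Itgb6 had 7.87 and 1.40 CPM in HC and 1.48 and 1.35 in PC, with HC replicate 3 alone standing out. Itgb6 passed without HC replicate 4 (2.43, adjusted p = 0.00389) and had -0.05 without HC replicate 3.

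The beta chains best known from other cell types had low levels. Itgb4, which joins alpha 6 in the hemidesmosomes of epithelia, had 0.162 and 1.58 CPM in HC and 5.43 and 3.32 CPM in PC. It was thus lower in both HC libraries without passing (-2.29 ± 1.15, edgeR adjusted p = 0.265), and had -4.76 without HC replicate 4. Of the 10 epidermal markers, Dsp, Perp, Epcam, Krt14 and Krt15 were higher in both HC libraries and Dsg3 was lower. Krt1, Krt5, Krt10 and Trp63 overlapped between groups. The part of epidermal RNA in the Itgb4 values was not tested. Itgb2, shared by the integrins of leukocytes, had 84 and 11 counts in HC and 5 and 2 in PC, or 6.82 and 0.495 CPM in HC and 0.145 and 0.0519 in PC. Macrophage markers likewise summed highest in HC replicate 3 and next in HC replicate 4, and their part in the result was not tested. Itgb2 passed without HC replicate 4 (6.03, adjusted p = 0.000696) and had 2.27 without HC replicate 3. Itgb7, a leukocyte chain that pairs with alpha 4, had 0 and 1 count in HC and 30 and 50 counts in PC, a ratio of 37.9-fold lower in HC (95% exact interval 6.61 to 1.51e+03, counting error only). The fitted difference did not pass (edgeR adjusted p = 0.1), and it did without HC replicate 3 or HC replicate 4 (adjusted p = 0.0253 and 0.0185).

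Laminin chains that rose with edgeR were Lama4 and Lamb1, 2 of 11, and none fell, against 2.75% and 1.96% of all genes. DESeq2's Wald test also called Lama5 higher (2.24, adjusted p = 0.00633) and Lamb2 lower (-1.0, 0.0286), where 9.81% and 8.7% of all genes were. Lama4, an alpha chain of vessels, muscle and other mesenchymal tissues, had 278 and 433 CPM in HC and 98.3 and 103.4 CPM in PC. The PC libraries were nearly equal and both HC libraries were well above them (1.82 ± 0.35, edgeR adjusted p = 0.0479). With PC replicate 1 dropped it no longer passed (1.74, adjusted p = 0.124), nor with PC replicate 2 dropped (1.82, 0.0678). Endothelial markers were also higher in HC, and their sum was larger in HC replicate 3 (283 CPM) than in HC replicate 4 (136 CPM), whereas Lama4 was larger in HC replicate 4. The part of vessels in the Lama4 values was not tested. Lama4 lies at chr10:38965515-39110188 (GRCm38, plus strand). Lama5, the alpha chain of most adult basement membranes, had 14.9 and 54.9 CPM in HC and 7.96 and 7.06 CPM in PC. HC replicate 4 carried most of that gap (2.22 ± 0.65, edgeR adjusted p = 0.0996), with 2.84 without HC replicate 3 (adjusted p = 0.000388) and 0.94 without HC replicate 4.

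Lama1, the chain of early embryonic laminin, and Lama2, that of muscle and nerve, were low and overlapped between groups. Lama1 had 8.93 and 3.56 CPM in HC and 2.44 and 3.58 in PC, passing without HC replicate 4 (1.52, adjusted p = 0.0245), and Lama2 had 3.17 and 9.59 CPM in HC and 6.80 and 7.04 in PC. Lama3, an epithelial chain, had 0 and 17 counts in HC and 58 and 53 counts in PC, lower in both HC libraries at an edgeR adjusted p of 0.491, and it passed when HC replicate 4 was dropped (-8.45, 0.00807).

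Lamb1 rose and its alternative Lamb2 stood lower. A laminin takes 1 beta chain, and Lamb1 is the common one of embryonic basement membranes while Lamb2 marks synapses, kidney and vessel walls. Lamb1 had 42.8 and 44.1 CPM in HC and 5.73 and 9.11 CPM in PC. The HC libraries were nearly equal and lay several times above PC (2.55 ± 0.38, edgeR adjusted p = 0.037), with the call lost without PC replicate 1 (2.22, adjusted p = 0.0654). Lamb1 lies at chr12:31265234-31329644 (GRCm38, plus strand). Lamb2 had 85.2 and 95.03 CPM in HC and 218 and 149 CPM in PC, lower in both HC libraries without passing (-1.02 ± 0.32, edgeR adjusted p = 0.114), and passed without HC replicate 4 (-1.15, adjusted p = 0.0468). The promoter window of Lamb1 (RefSeq, GRCm38.p6, plus strand, 63.7% G and C) is shown because Lamb1 is the laminin chain with the largest rise that passed. It held 2 GC boxes, starting 84 and 75 bases before the start site and read on the other strand, and no RUNX, AP-1, SOX or TATA letters.
Lamb1 promoter, chr12:31265043-31265342: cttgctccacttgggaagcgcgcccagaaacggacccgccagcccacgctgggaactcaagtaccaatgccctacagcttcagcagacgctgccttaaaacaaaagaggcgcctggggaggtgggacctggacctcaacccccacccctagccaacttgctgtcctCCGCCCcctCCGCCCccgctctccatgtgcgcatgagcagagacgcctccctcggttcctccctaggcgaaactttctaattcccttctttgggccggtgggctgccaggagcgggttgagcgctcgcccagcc

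Among the gamma chains Lamc1, which is in most laminins, had 129 and 111 CPM in HC and 104 and 108.5 CPM in PC (0.18 ± 0.28, edgeR adjusted p = 0.733). Both HC libraries were slightly higher, and the difference did not pass. Lamc3 had 1 and 46 counts in HC and 16 and 2 in PC.

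**Figure D3:**
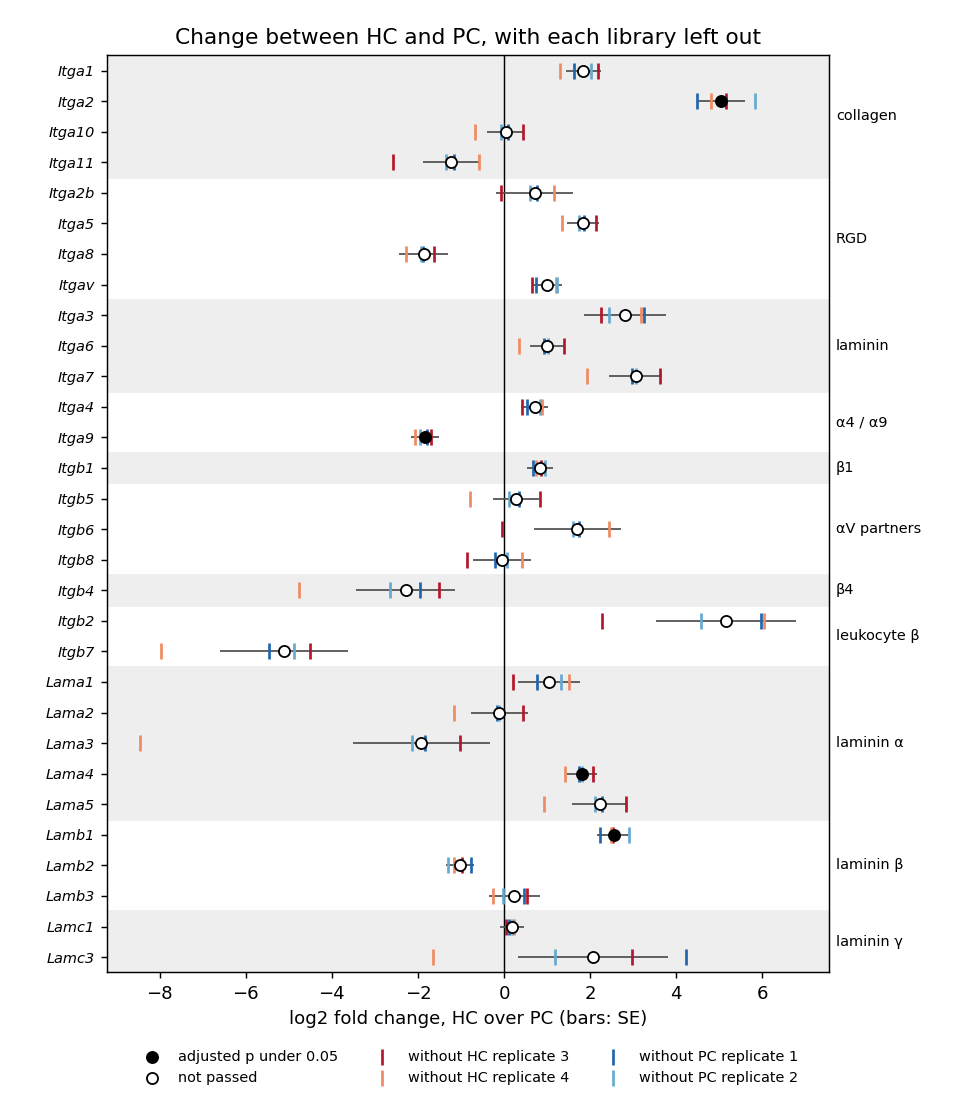
Log2 fold change of HC over PC for the members (circles, filled where the edgeR adjusted p was under 0.05, bars giving the SE, n = 2 per group) and the same value with each library left out (coloured ticks). Itga2 stays between 4.48 and 5.82, while members with few counts such as Lama3, Itgb7 and Lamc3 move widely with 1 library.

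Levels per length gave the make-up of the chains. A gene's deposited TPM is summed over all of its transcripts, and short non-coding ones weigh heavily there, so the same levels were also taken over coding transcripts of at least 1000 bases. On that second scale the alpha chains in PC were led by Itga6 (30.1 and 26.2 TPM), Itga10 (21.8 and 17.0 TPM) and Itgav (17.7 and 22.2 TPM). In HC replicate 3 the order was Itgav (28.4 TPM), Itga2 (23.7 TPM) and Itga6 (20.7 TPM), and in HC replicate 4 Itga6 (66.7 TPM), Itga2 (46.1 TPM) and Itga5 (45.5 TPM). Itga2 thus stood second among 13 alpha chains in each HC library. Its share of summed alpha chain TPM was 18.4% and 16.7% in HC and 0.737% and 1.76% in PC on coding transcripts, and 10.8% and 7.92% in HC and 0.304% and 0.781% in PC on all transcripts. An exact two-sided permutation test of 2 against 2 libraries cannot go below 0.333, the value reached here (p = 0.333).

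Itga10 and Itga9 held a smaller share in both HC libraries on both scales. The level of Itga10 itself overlapped between groups, with 7.12 and 23.9 TPM in HC and 21.85 and 17.0 in PC on coding transcripts. The summed alpha chain TPM by which it was divided was 129 and 275.8 in HC and 118.3 and 109.5 in PC. Itga10 held 5.52% and 8.66% in HC and 18.5% and 15.6% in PC of the alpha chain TPM on coding transcripts, and 3.24% and 4.11% in HC and 7.99% and 6.99% in PC on all transcripts (exact two-sided permutation p = 0.333 for each). Itga9 held 0.637% and 0.698% in HC and 6.03% and 4.88% in PC on coding transcripts, and 2.62% and 1.40% in HC and 16.3% and 14.8% in PC on all transcripts. Itgb1 made up 84.8% and 72.0% of the beta chain TPM in HC and 69.9% and 73.9% in PC on coding transcripts, an overlap.

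Among laminins 1 gene made up most of the alpha TPM in both groups, while the beta TPM was divided differently. Lama4 was 93.9% and 91.2% of laminin alpha TPM in HC and 89.4% and 89.8% in PC on coding transcripts. Lamb1 was 35.2% and 30.5% of laminin beta TPM in HC and 1.88% and 5.76% in PC on coding transcripts, with Lamb2 at 64.5% and 69.0% in HC and 97.6% and 94.1% in PC (exact two-sided permutation p = 0.333, the smallest possible). On all transcripts Lamb3 held 6.46% and 58.4% of beta TPM in HC and 25.5% and 18.3% in PC.

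**Figure D4:**
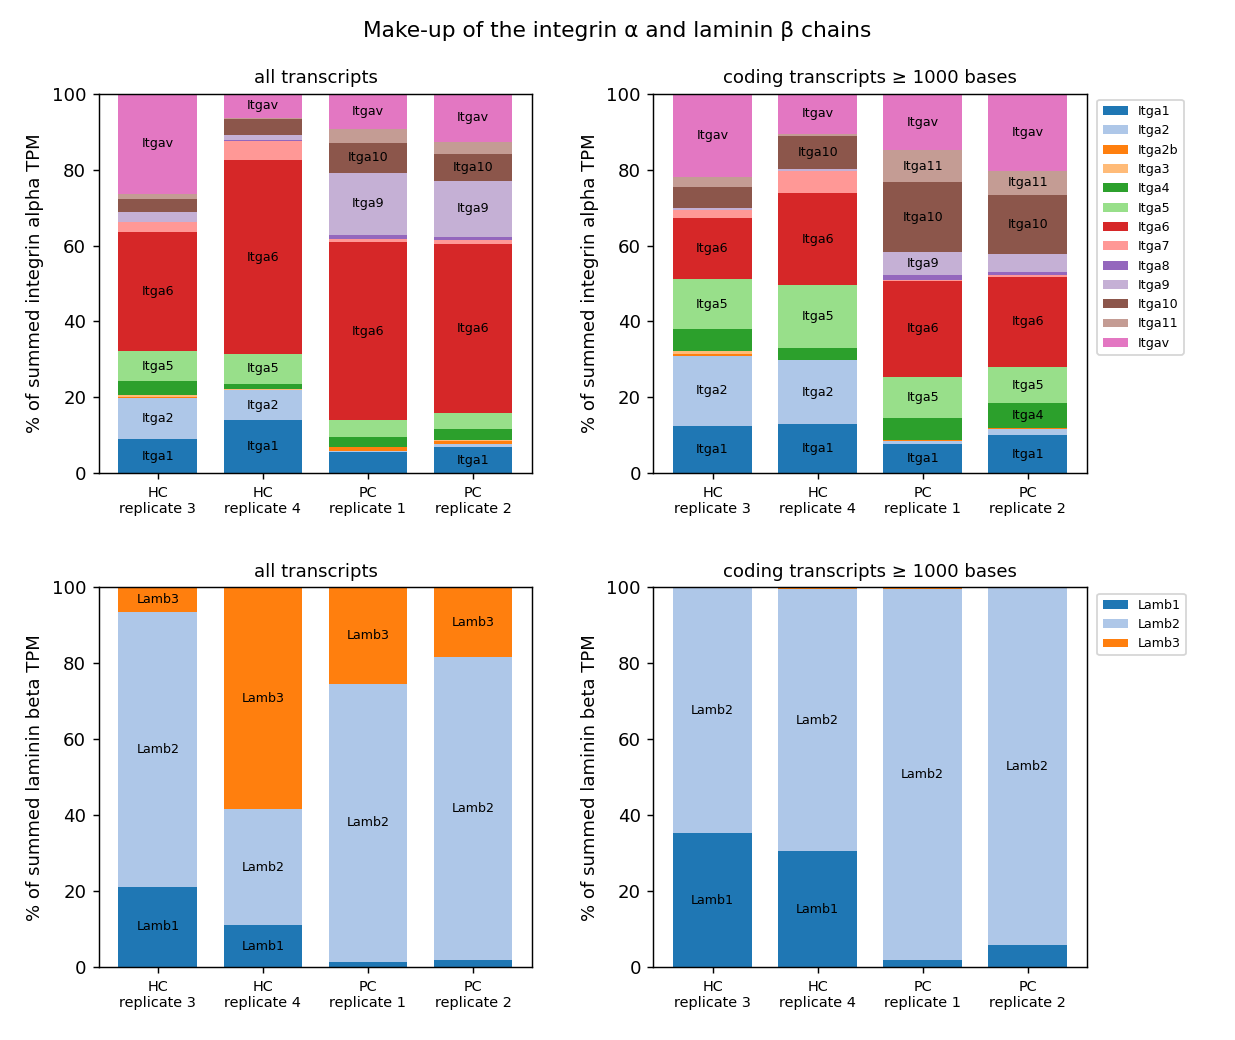
Share of each chain in the summed TPM of integrin alpha chains (top) and laminin beta chains (bottom), over all transcripts (left) and over coding transcripts of at least 1000 bases (right), 1 bar a library with HC left of PC. Itga2 takes 18.4% and 16.7% of alpha TPM in HC on the right, and the Lamb3 band of the left panels is nearly gone on the right.

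In HC replicate 4 and both PC libraries that Lamb3 signal lay on 1 short transcript, which is 258 bases long in 3 exons and annotated as processed without a coding frame. It spans chr1:193207750-193254474 (GRCm38, plus strand). This transcript had 0 and 142 estimated counts in HC and 112 and 72 in PC, which made 69.8 TPM in HC replicate 4 and 50.2 and 23.0 TPM in PC. Coding Lamb3 transcripts of at least 1000 bases had at most 0.28 TPM in any library, or 0.204% to 1.13% of the gene's TPM. The TPM of Itga9, Itga6 and Itgb1 also lay mostly outside such transcripts, whereas most of their estimated counts lay on them. By library these transcripts held 69.1% to 81.3% of counts for Itga9, 60.5% to 63.2% for Itga6 and 60.3% to 87.4% for Itgb1. For Itga6 they held 30.2% and 22.4% of TPM in HC and 22.3% and 23.8% in PC. Coding transcripts of at least 1000 bases held 14.3% and 23.7% of Itga9 TPM in HC and 15.2% and 14.6% in PC. A coding transcript of 649 bases held 0% and 18.1% in HC and 10.6% and 4.26% in PC. Non-coding transcripts of 603 and 650 bases together held most of the Itga9 TPM in each library. Over the 7020-base coding transcript of Itga9 alone the estimated counts were 87.8 and 238 in HC and 1097 and 1079 in PC. For Itgb1 the retained-intron transcript of 651 bases had 305 and 353 TPM in HC and 105 and 211 TPM in PC, against 66.7 and 136 TPM in HC and 96.3 and 86.5 TPM in PC for the coding transcript of 3815 bases. Thus in TPM Itgb1 was higher in both HC libraries on all transcripts, and overlapped between groups on the coding one. The overlap belongs to the TPM scale. On scaled counts edgeR put Itgb1 higher in HC by 0.65 (log2) over long coding transcripts and by 0.84 over all. Neither difference passed. Itgb2 had no count on a coding transcript of that length in any library.

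**Figure D5:**
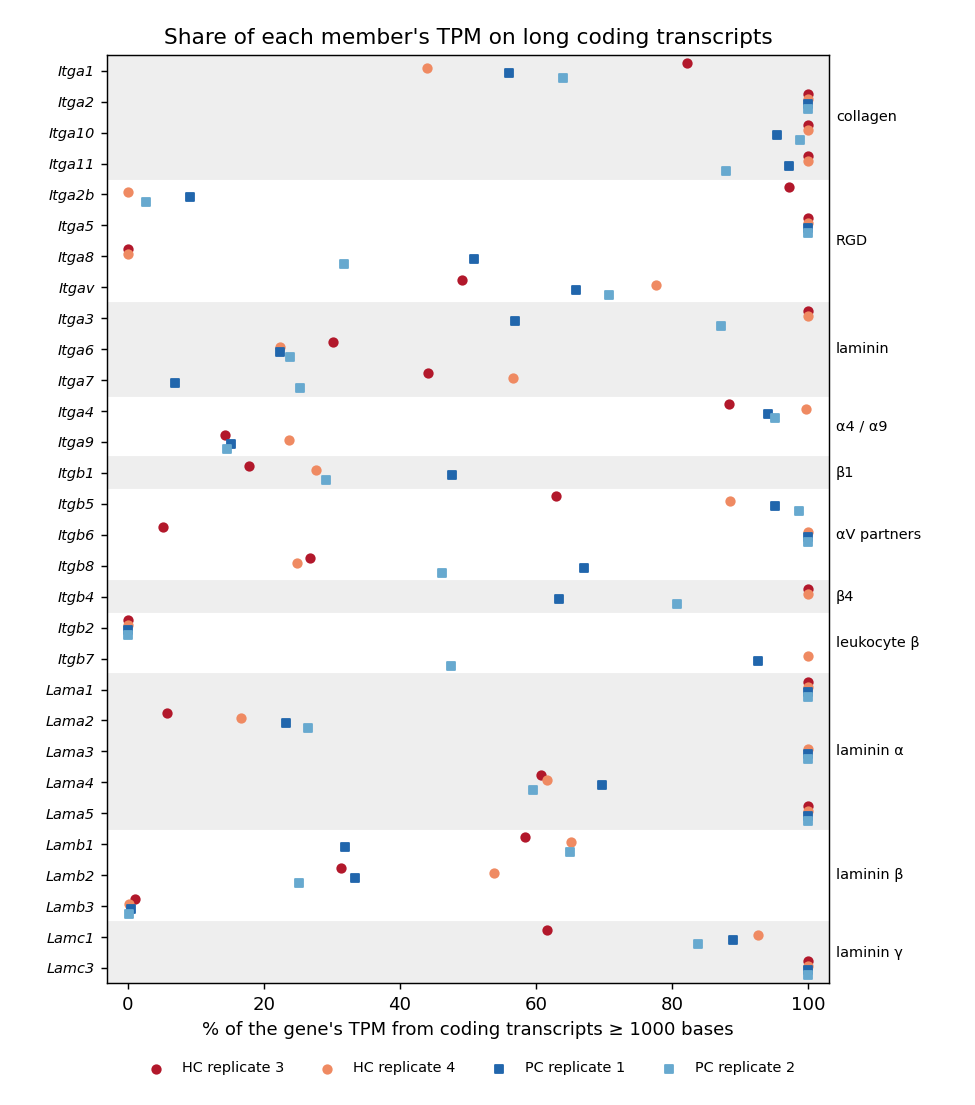
Percent of a member's TPM that lies on coding transcripts of at least 1000 bases, by library (circles for HC, squares for PC), grouped by class. Itga2, Itga5, Lama1 and Lama5 sit at 100%, and Lamb3 and Itgb2 at or near 0.

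The split between full-length isoforms set HC replicate 3 apart in several genes. Itgav has coding isoforms of 7054 and 6788 bases. The 7054-base isoform had 0 and 3269 estimated counts in HC and 2808 and 4509 in PC, and the 6788-base isoform had 2927 and 344.5 in HC and 0 in each PC library. Itga10 had 53.3 and 2105 estimated counts on its 5044-base isoform in HC and 2255 and 2048 in PC, against 488 and 0 on its 5035-base isoform in HC and 198 and 404 in PC. The 4310-base isoform of Itga6 had 0 and 2626 in HC and 1596 and 1965 in PC, with 1288 and 2275 on the 4156-base isoform in HC and 1069 and 1145 in PC. These splits are likelihood estimates of unknown error, and the gene counts tested above are sums over all isoforms.

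Of the ligands of these receptors, 4 of 21 tested rose and none fell, against 2.75% and 1.96% of all genes tested. The list's median log2 fold change was 0.56 and that of all genes -0.04. Fn1, fibronectin, the ligand of alpha 5, had 10060 and 15960 CPM in HC and 1356 and 1754 CPM in PC (3.06 ± 0.49, edgeR adjusted p = 0.038). Npnt, nephronectin, had 196.5 and 146 CPM in HC and 6.63 and 13.99 in PC (4.05 ± 0.49, adjusted p = 0.0359), while its receptor chain Itga8 stood lower in both HC libraries. Tgfb1, whose latent form alpha V integrins bind, had 47.7 and 90.4 CPM in HC and 12.8 and 10.6 in PC, and Postn, periostin, had 76.6 and 44.1 CPM in HC and 9.36 and 14.3 in PC. Postn is also a perichondrial and osteoblast gene, and it was higher in HC replicate 3, as were the sums of those markers. Without single libraries 6 to 14 ligands passed, the 14 without HC replicate 4, where 39% of all genes did.

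Among 20 basement membrane partners of laminins 1 rose and 2 fell, against 2.75% and 1.96% of all genes tested. Ntn4, a netrin that binds the laminin gamma 1 short arm and hinders laminin network assembly, had 42.0 and 74.7 CPM in HC and 0.814 and 2.34 CPM in PC (5.20 ± 0.67, edgeR adjusted p = 0.0359). Nid2, a nidogen that links laminin to collagen IV, had 115 and 135 CPM in HC and 709 and 439.6 in PC (-2.20 ± 0.37, edgeR adjusted p = 0.0401). Smoc1, a calcium-binding matrix protein, had 10.3 and 4.10 CPM in HC and 56.6 and 50.4 in PC (-2.91 ± 0.51, edgeR adjusted p = 0.0427). The list's median was -0.41, and without single libraries 4 to 10 members passed, the 10 without HC replicate 3, where 28.3% of all genes did.

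Inside the cell, none of 33 tested genes of the adhesion machinery passed with edgeR, and 7 had an unadjusted p under 0.05, where 27% of all genes did. DESeq2 called 2 of 33, against 18.5% of all genes. The lowest adjusted p belonged to Tgfb1i1, a paxillin relative, with 83.5 and 74.1 CPM in HC and 22.8 and 32.6 in PC (1.51 ± 0.32, edgeR adjusted p = 0.0577). Tns2, a tensin, had 84.1 and 115 CPM in HC and 311 and 189.6 in PC (-1.33 ± 0.38, edgeR adjusted p = 0.0954), and Nedd9, a scaffold of the Cas family, had 19.1 and 16.3 CPM in HC and 32.5 and 38.6 in PC. The median log2 fold change of the list was 0.10, against -0.04 over all genes tested. Of the leukocyte alpha chains Itgal, Itgam, Itgax, Itgad and Itgae, 3 were tested and none passed with edgeR (0 at an unadjusted p under 0.05), and Itgam, the macrophage chain, had 5.60 and 3.11 CPM in HC and 1.74 and 1.69 in PC.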

How the data were processed

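RNA from 2 HC and 2 PC libraries was sequenced. Per the labels' protocols, a low-input column kit and a library kit for degraded RNA were used. Trimmomatic 0.36, kallisto 0.43.1 and build mm10 are named in the submitters' processing notes. Each transcript has lengths, estimated counts and TPM in the authors' deposited tables, per the file headers. The strand setting and index release were not found in these sources, so a gene and an antisense partner may share reads. Of 109282 transcripts, 107987 matched GENCODE M21 (GRCm38), the source of symbols, classes and coordinates.

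Gene sums of the estimated counts, rounded, were filtered with filterByExpr of edgeR 4.0.16 and scaled by TMM (factors 0.812 and 1.021 in HC, 1.14 and 1.058 in PC). HC was tested against PC with edgeR's quasi-likelihood F-test and Benjamini-Hochberg adjustment over all 16607 genes tested. CPM uses these scaled library sizes, and the SE comes from the coefficient and F statistic. The test was tried on simulated data with known changes. Software was R 4.3.3 with limma 3.58.1 and DESeq2 1.42.0, and Python 3.11.15 with SciPy 1.17.1, NumPy 2.4.6, matplotlib 3.10.9 and pandas 2.3.3. The alternatives comprised other scalings, tests, filters, a length offset, each library left out and sums over long coding transcripts, the last chosen after seeing the data. Members were named by the rule, and from the companion lists those that passed or else had the lowest p. Of the list symbols, 3 were matched through RefSeq synonyms, and 1 matched no gene. Promoter windows matched 21 of the 31 members. Members and lists were chosen with earlier results of these data known. Single chains of these families are not reported here. No replicate numbers are shared between groups.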

Additional observations from a re-analysis of the deposited data

How the results depend on the processing

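The 3 members that were higher and the 1 that was lower kept these counts with DESeq2's size factors, and 2 and 1 passed with an effective length offset, which left 1 laminin and 2 ligands (Lama4 at an adjusted p of 0.0708). No member passed (0 higher, 0 lower, 0 integrins, 0 laminins, 0 partners, 0 ligands) with scaling to library size alone, with limma-trend on log2(TPM + 1) or log2(TPM + 0.1), or over coding transcripts of at least 1000 bases, where Itga2, Lamb1, Lama4 and Itga9 kept their direction at 5.09, 2.91, 1.81 and -1.68 (adjusted p = 0.058, 0.0606, 0.0698 and 0.0845). Scaling to library size alone moved the median of all genes to -0.29, and the TPM scales to -0.42 and -0.58. Without a filter 7 members were higher, 5 integrins, 10 ligands and 2 adhesion genes passed, where 7.98% of all genes did, and with DESeq2's Wald test 11 were higher and 3 lower, with 10 integrins, 4 laminins, 14 ligands, 6 partners and 2 adhesion genes, where 9.81% of all genes were higher and 8.7% lower. Leaving out single libraries gave 2 to 12 higher and 0 to 6 lower members, 2 to 12 integrins, 0 to 6 laminins, 6 to 14 ligands, 4 to 10 partners and 0 to 5 adhesion genes, where 3.49% to 39% of all genes passed, the lone library of a group being assumed to vary like the other group. The causes were not tested.

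Signs turned for members near 0 or with few counts. These were, with the length offset, Itga2b (-1.19), Itgb8 (0.44), Itga10 (-0.05) and Lama2 (0.74), with library size alone Itga10 (-0.17) and Lamc1 (-0.09), and over long coding transcripts Lamb3 (-0.50). On log2(TPM + 1) they were Itga2b (-0.98), Itgb5 (-0.11), Itga10 (-0.55), Lama2 (0.22), Lamb3 (-1.18) and Lamc1 (-0.03), and on log2(TPM + 0.1) -1.59, -0.12, -0.60, 0.27, -1.34 and -0.03. Without HC replicate 3 they were Itga2b (-0.06), Itgb6 (-0.05) and Lama2 (0.44), without HC replicate 4 Itgb5 (-0.79), Itgb8 (0.42), Itga10 (-0.67), Lamb3 (-0.26) and Lamc3 (-1.65), and without PC replicate 2 Itgb8 (0.06), Itga10 (-0.08) and Lamb3 (-0.03). Without single libraries the range was -0.06 to 1.16 for Itga2b, -0.79 to 0.82 for Itgb5, -0.05 to 2.43 for Itgb6, -0.87 to 0.42 for Itgb8, -0.67 to 0.45 for Itga10, -1.17 to 0.44 for Lama2, -0.26 to 0.54 for Lamb3 and -1.65 to 4.22 for Lamc3.

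The share of Itga2 among alpha chains differed by 8.82 percentage points (HC minus PC), by 15.8 on estimated counts and 16.3 on long coding transcripts, and by 7.38 to 10.3 without single libraries. The share of Itga9 differed by -13.6, by -6.48 and -4.79 on those scales, and by -14.3 to -12.8. The share of Lama4 among laminin alpha chains differed by 4.23, by 4.56 and 2.93 on those scales, and by 2.66 to 5.81 without single libraries. That of Lamb2 among beta chains differed by -25.0, and by -28.8 and -29.05 on those scales. Without single libraries it differed by -46.0 to -4.08 on all transcripts. No paired analysis was possible because the groups share no replicate number.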
